A study of Mus musculus with 9 samples.

Results

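The genes described here encode 10 membrane-binding, EF-hand and lectin proteins, measured in mouse embryonic stem cells: the annexins Anxa1, Anxa2, Anxa3 and Anxa5, the S100 proteins S100a4, S100a6, S100a10 and S100a11, and the galectins Lgals1 and Lgals3. They were taken by gene name from the array's non-control probes, which gave 12 probes, 2 each for Anxa1 and S100a4 and 1 for each of the others. All 10 were among the 19913 genes tested, and all 12 probes were well above background on all 9 arrays with no saturated spot.

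Total RNA was measured on 1-colour Agilent arrays in embryonic stem cells, pluripotent cells that renew themselves in culture, of a line in which Cre recombinase can delete Xpc at loxP sites. Xpc is the sensor that finds distorted DNA at the start of nucleotide excision repair, and it is also known as a partner of Oct3/4 and Sox2 in transcription. There were 3 groups of 3 arrays: floxed cells without deletion of Xpc (Xpc f/f, -Tx), induced cells at day 4 of the deletion (Xpc f/f, +Tx), and a subclone of Xpc-null cells (Xpc KO). The null group is subcloned material, and the number of clones is not given in the sources used here, so the loss of Xpc and the properties of a subclone cannot be told apart. No group had +Tx without the deletion, so that agent and the deletion cannot be told apart either. The labels name triplicates and do not say that these were separate cultures, so p-values measure the spread between these arrays, which may be technical.

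Annexins are cytosolic proteins that bind acidic phospholipids of membranes when calcium rises. S100 proteins are small EF-hand proteins that work as dimers on target proteins, annexins among them: S100a10 is the partner of Anxa2 and S100a11 that of Anxa1. Galectins are lectins that bind beta-galactosides on glycoproteins inside and outside the cell. All 3 families are known as abundant products of mesenchymal and epithelial cells, and none of the 10 is a pluripotency factor.

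S100a4 and S100a6 are paralogs that lie close together in the S100 gene cluster, so 60-base probes that read them are shown side by side. The capitals mark the longest run the 2 probes share. Positions here and below are on mm9 as deposited, S100a4 on the plus strand at chr3:90409734-90409793 and S100a6 on the plus strand at chr3:90418160-90418219.

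S100a4: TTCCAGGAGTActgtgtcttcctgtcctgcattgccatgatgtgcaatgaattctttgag
S100a6: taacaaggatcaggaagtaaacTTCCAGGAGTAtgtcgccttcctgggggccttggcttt

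The shared run is 11 bases long. No member's probe shared more than 19 bases with the probe of any gene on the array outside the genes described here. Apart from the pair shown above, runs shared between the members' own probes were not analysed here. The annexin probes lie at chr19:20447938-20447997 on the minus strand (Anxa1), chr9:69339532-69339591 on the plus strand (Anxa2), chr5:97253925-97253984 on the plus strand (Anxa3) and chr3:36348065-36348124 on the minus strand (Anxa5). The probes of S100a11 at chr3:93330022-93330081 and S100a10 at chr3:93368437-93368496 lie on the plus strand of the same chromosome as the S100 cluster. Those of the galectins lie at chr15:78760566-78760625 (Lgals1) and chr14:48005414-48005473 (Lgals3), both on the plus strand. Which exon each probe lies in was not analysed here.

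Values below are levels on a log2 scale, the processed signal of a spot divided by the 75th percentile of that array's signals, so that 0 is the level of that percentile and a difference of 1 is a doubling of signal. They compare arrays for 1 probe and do not rank genes against each other. On this scale Xpc itself was at 0.59, 0.55 and 0.16 on the floxed arrays, -1.11, -0.68 and -1.05 on the induced arrays and -0.85, -1.53 and -1.37 on the null arrays. Xpc thus lay lower on every induced and null array than on any floxed array (limma, null minus floxed -1.68, adjusted p = 0.00584 over all genes; induced minus floxed -1.38, adjusted p = 0.224, and -1.51 with adjusted p = 0.0319 without floxed array 3), and whether the probe lies in the deleted stretch was not analysed here. The stem cell markers were present on all arrays, with Pou5f1 (Oct3/4) at 4.84 ± 0.13 in floxed, 4.80 ± 0.57 in induced and 4.29 ± 0.38 in null cells (SD, n = 3). Floxed array 3 stood apart: its values differed from the mean of floxed arrays 1 and 2 with an SD over genes of 0.492, against 0.284 between arrays 1 and 2. It shared slide 2 with null array 3, while floxed arrays 1 and 2 were on slide 1, and the induced arrays and null arrays 1 and 2 on slide 3. The values of floxed array 3 and null array 3 correlated at r = 0.993 across genes (genes are not replicates). No other pair is set beside this r, so it does not show that these arrays were more alike than others. The members' differences from floxed cells are therefore given with and without floxed array 3, as are the counts of the other gene lists. With it left out, the floxed arrays are those of slide 1, which held no null or induced array. Group and slide then cannot be told apart in any comparison with floxed cells, whatever the adjusted p.

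Anxa1, Anxa3, Anxa5 and Lgals1 were lower in the null cells than in the floxed cells, by 1.94-fold to 4.12-fold, and no member was higher past the test. They were also lower in null than in induced cells, and Lgals3 joined them there. In the induced cells at day 4, none of the 10 differed from the floxed cells past the test. Anxa2, its partner S100a10, S100a11, S100a6 and, at the brighter of its probes, S100a4 did not pass in any of the 3 comparisons.

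In null minus floxed cells, 4 of 10 members fell and 0 rose at an adjusted p under 0.05 (limma, Benjamini-Hochberg over 19913 genes), where 1.85% of all genes passed, 1.11% fell and 0.738% rose. With floxed array 3 left out, there were 5 that fell and 2 that rose, Anxa2 and S100a10, where 24.8% of all genes passed. No floxed array shares a slide with a null array in that fit, so these calls do not separate group from slide. In null minus induced cells 5 of 10 fell and 0 rose, where 2.2% of all genes passed, 1.54% fell and 0.658% rose. When floxed array 3 was omitted, which enters this comparison through the shared estimate of spread, 7 fell, S100a4 and S100a6 in addition, where 18.1% of all genes passed. In induced minus floxed cells 0 of 10 passed (limma), where 0.00502% of all genes, 1 gene, did; at an unadjusted p under 0.05 there was 1 member, Lgals3, against 5.91% of all genes. Without floxed array 3 it was again 0 of 10, where 0.728% of all genes passed. At an unadjusted p under 0.05, 6 members were lower in null than in floxed cells and 8 lower than in induced cells, against 22.8% and 23.8% of all genes in either direction. The median change of the members was -0.53 in null minus floxed cells and -0.51 in null minus induced cells, beside medians over all genes of 0.01 and 0.02 (-0.44 in null minus floxed cells without floxed array 3, beside 0.02). The 2 null comparisons share the null arrays. In bulk samples such as these, fewer cells of a type and less RNA per cell cannot be told apart.

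**Figure D1:**
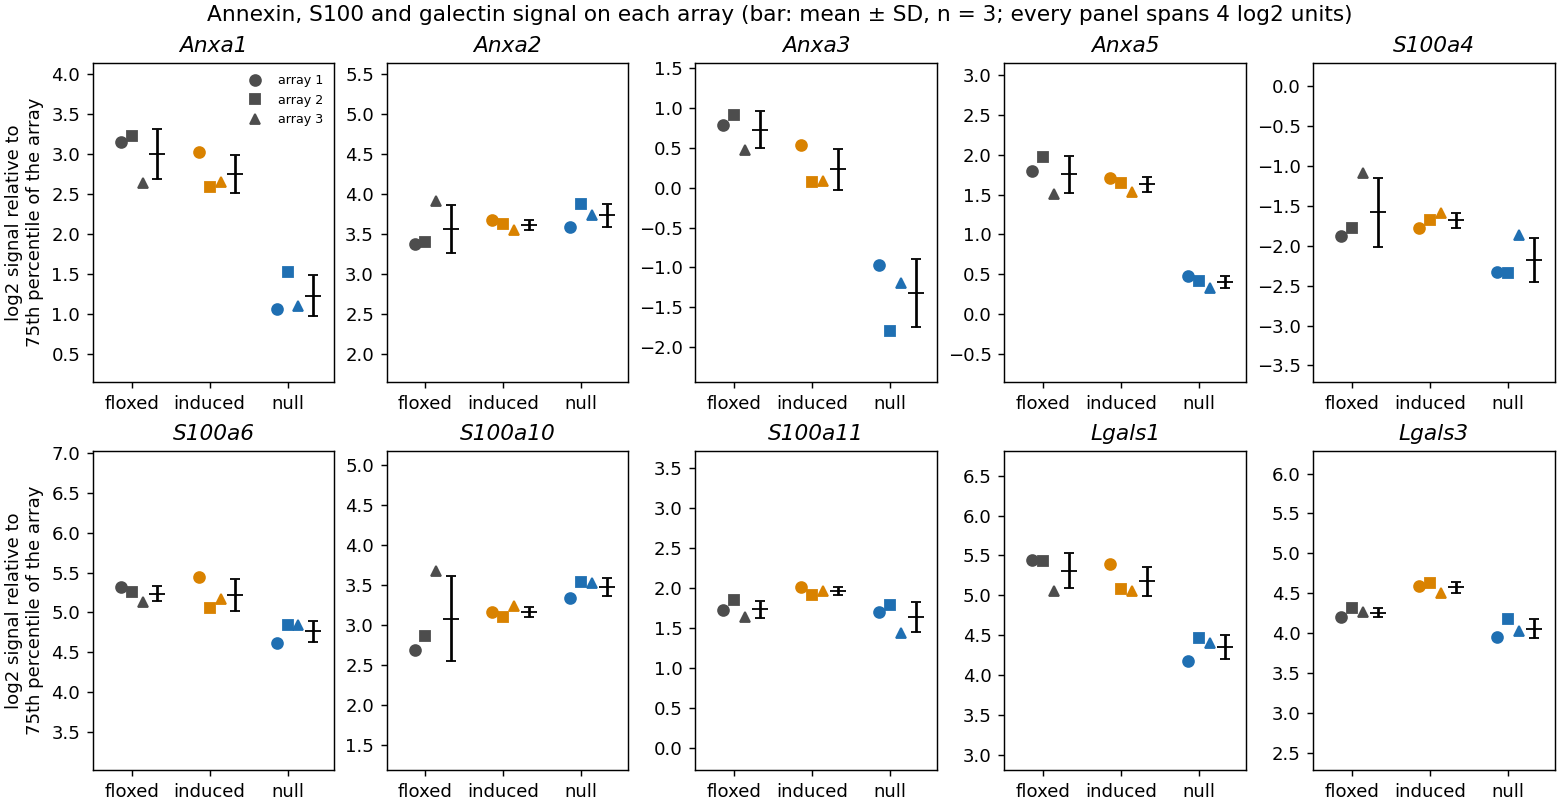
Level of each of the 10 genes on each of the 9 arrays (log2 of the signal relative to the array's 75th percentile, vertical axis), 1 panel per gene, with a marker shape for each array number and the mean ± SD of each group (n = 3) beside the points. The null arrays lie below all others for Anxa1, Anxa3, Anxa5, S100a6, Lgals1 and Lgals3. Floxed array 3 lies above floxed arrays 1 and 2 for Anxa2, S100a4 and S100a10. It lies below both for Anxa1, Anxa3, Anxa5, S100a6, S100a11 and Lgals1.

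Anxa1 (lipocortin), the annexin known for its anti-inflammatory action through formyl peptide receptors, was at 3.15, 3.22 and 2.64 on the floxed arrays, 3.02, 2.58 and 2.65 on the induced arrays and 1.06, 1.53 and 1.09 on the null arrays. All 3 null arrays lay below all other arrays, and floxed and induced arrays overlapped. The level in null cells was 3.43-fold lower than in floxed cells (log2 difference -1.78, SE 0.198, limma adjusted p = 0.00431) and 2.88-fold lower than in induced cells (-1.53, adjusted p = 0.0112). With floxed array 3 left out, the difference from floxed cells was -1.96 (adjusted p = 0.000399), and without null array 1 that from induced cells no longer passed (adjusted p = 0.0518). The second probe of Anxa1 starts 1784 bases from the first, and was at 0.75, 0.87 and 0.72 on the floxed, 0.72, 0.31 and 0.32 on the induced and -1.10, -0.78 and -1.19 on the null arrays. It gave nearly the same difference as the first, with null cells 3.49-fold lower than floxed cells (-1.80, adjusted p = 0.00109 in a limma fit over all kept probes; -1.83 without floxed array 3).

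Anxa3, an annexin found in neutrophils and in growing vessels, was at 0.79, 0.91 and 0.47 on the floxed arrays, 0.53, 0.07 and 0.08 on the induced arrays and -0.97, -1.79 and -1.19 on the null arrays. It had the largest difference of the 10 genes: null cells were 4.12-fold lower than floxed cells (-2.04, SE 0.227, limma adjusted p = 0.00429) and 2.92-fold lower than induced cells (-1.55, adjusted p = 0.0172). When floxed array 3 was omitted, the first of these was -2.17 (adjusted p = 0.000907), and the second did not pass without induced array 1, 2 or 3 (adjusted p = 0.0771, 0.0652 and 0.0575). The induced arrays lay between the other groups, 0.50 below the floxed cells on average, but overlapped the floxed arrays (adjusted p = 0.858; 95% interval of the difference, -1.01 to 0.02; -0.62 with adjusted p = 0.361 without floxed array 3).

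Anxa5, which binds phosphatidylserine and is used to stain dying cells, was at 1.79, 1.97 and 1.51 on the floxed arrays, 1.71, 1.64 and 1.53 on the induced arrays and 0.48, 0.41 and 0.33 on the null arrays. The 3 null values lay close together and far below all others. Null cells were 2.55-fold lower than floxed cells (-1.35, SE 0.127, limma adjusted p = 0.00176) and 2.33-fold lower than induced cells (-1.22, adjusted p = 0.00387). Without floxed array 3 the first was -1.47 (adjusted p = 0.000134). This was the only member whose difference passed the test in both null comparisons under each of the 21 other settings and array omissions tried.

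Anxa2, which with S100a10 forms a tetramer at the plasma membrane that binds plasminogen, was at 3.37, 3.40 and 3.91 on the floxed arrays, 3.67, 3.62 and 3.55 on the induced arrays and 3.59, 3.87 and 3.74 on the null arrays. The groups overlapped in all comparisons; floxed array 3 was the highest of the 9, and floxed arrays 1 and 2 were the lowest. Null minus floxed was 0.17 (95% interval -0.17 to 0.52, limma adjusted p = 0.525), which does not include a fall of the size of Anxa1, Anxa3 or Anxa5. With floxed array 3 left out, it was 0.35 and passed (limma adjusted p = 0.0433), so the call depended on that array while the direction did not. Within slide 2 the direction was the opposite, with null array 3 0.17 below floxed array 3.

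Its partner S100a10 (p11), an S100 protein that no longer binds calcium, went the same way. It was at 2.69, 2.86 and 3.68 on the floxed arrays, 3.16, 3.11 and 3.23 on the induced arrays and 3.34, 3.54 and 3.53 on the null arrays. Floxed array 3 was again the highest of the 9 and 0.91 above the mean of floxed arrays 1 and 2. The null cells differed from the floxed cells by 0.40 (SE 0.225, limma adjusted p = 0.323), and by 0.70 without floxed array 3 (adjusted p = 0.00278), whereas null array 3 was 0.15 below floxed array 3 on slide 2. All null arrays were above all induced arrays, by 0.31 on average (adjusted p = 0.433).

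S100a11, the S100 partner of Anxa1, was at 1.72, 1.85 and 1.64 on the floxed arrays, 2.01, 1.91 and 1.97 on the induced arrays and 1.70, 1.79 and 1.43 on the null arrays. The induced arrays lay above all others, 0.23 above the floxed cells (SE 0.115, limma adjusted p = 0.895; 0.18 without floxed array 3) and 0.32 above the null cells (adjusted p = 0.142). Null minus floxed was -0.09 with a 95% interval of -0.35 to 0.17, which leaves out a change of the size seen in its partner Anxa1. When floxed array 3 was omitted, it was -0.14 (adjusted p = 0.417).

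S100a6 (calcyclin), which binds the calcyclin-binding protein Cacybp, was at 5.32, 5.26 and 5.13 on the floxed arrays, 5.44, 5.06 and 5.17 on the induced arrays and 4.61, 4.84 and 4.85 on the null arrays. All null arrays lay below all others, by 0.47 on average from floxed cells (SE 0.125, limma adjusted p = 0.0898) and 0.45 from induced cells (adjusted p = 0.0932), and neither passed. Without floxed array 3 both did, with null minus floxed -0.52 (adjusted p = 0.0246) and null minus induced -0.45 (adjusted p = 0.0352).

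S100a4, which binds non-muscle myosin and is known as a marker of motile mesenchymal cells, was read by a pair of probes that differed. The brighter one, whose sequence is shown above, was at -1.88, -1.78 and -1.08 on the floxed arrays, -1.78, -1.68 and -1.58 on the induced arrays and -2.33, -2.34 and -1.86 on the null arrays. Null and floxed arrays overlapped, and null minus floxed was -0.60 (SE 0.216, limma adjusted p = 0.156). The other probe starts 174 bases away, at chr3:90409908-90409967 on mm9, and was at -1.81, -2.03 and -1.12 on the floxed, -1.91, -1.59 and -1.62 on the induced and -3.32, -2.98 and -3.11 on the null arrays. On it, all null arrays lay below all others and null cells were 2.80-fold lower than floxed cells (-1.48, adjusted p = 0.0209 in a limma fit over all kept probes) and lower than induced cells by 1.43 on the log2 scale (adjusted p = 0.0231), so the call for S100a4 depends on the probe. The mean of both probes gave -1.04 against floxed cells (adjusted p = 0.0443) and -0.96 against induced cells (adjusted p = 0.0517). Floxed array 3 was the highest array on both. Without it, null minus floxed was -1.22 on the dimmer probe (adjusted p = 0.00137), and the difference of the brighter probe was -0.35 from floxed cells (adjusted p = 0.14) and -0.50 from induced cells (adjusted p = 0.0442).

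Lgals1 (galectin-1), a dimeric lectin of the cell surface and matrix, was at 5.45, 5.43 and 5.05 on the floxed arrays, 5.39, 5.08 and 5.06 on the induced arrays and 4.18, 4.47 and 4.40 on the null arrays. All null arrays lay below all others. The level in null cells was 1.94-fold lower than in floxed cells (-0.96, SE 0.148, limma adjusted p = 0.0211) and 1.77-fold lower than in induced cells (-0.82, adjusted p = 0.0338). With floxed array 3 left out, the first was -1.09 (adjusted p = 0.00126). The call was lost on leaving out floxed array 1 (adjusted p = 0.0921), floxed array 2 (0.1), null array 1 (0.0736) or null array 2 (0.0643), and against induced cells on leaving out any induced or null array, each with the same direction.

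Lgals3 (galectin-3), which joins its lectin domain to a repeat-rich tail and forms oligomers, was at 4.20, 4.31 and 4.27 on the floxed arrays, 4.60, 4.62 and 4.50 on the induced arrays and 3.95, 4.18 and 4.03 on the null arrays. The 3 groups did not overlap: induced arrays were the highest and null arrays the lowest. Null cells were 1.43-fold lower than induced cells (-0.52, SE 0.0951, limma adjusted p = 0.0364), a call that was lost on leaving out any single array other than floxed array 3. Null minus floxed was -0.20 (adjusted p = 0.239), and -0.20 without floxed array 3 (adjusted p = 0.178). Induced minus floxed was 0.31 (95% interval 0.10 to 0.53, unadjusted p = 0.00943, adjusted p = 0.6), and 0.32 without floxed array 3 (adjusted p = 0.25). For Lgals1 the induced arrays overlapped the floxed arrays. Whether the galectins differed in the rank of these groups was not tested, and induced and floxed arrays shared no slide.

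**Figure D2:**
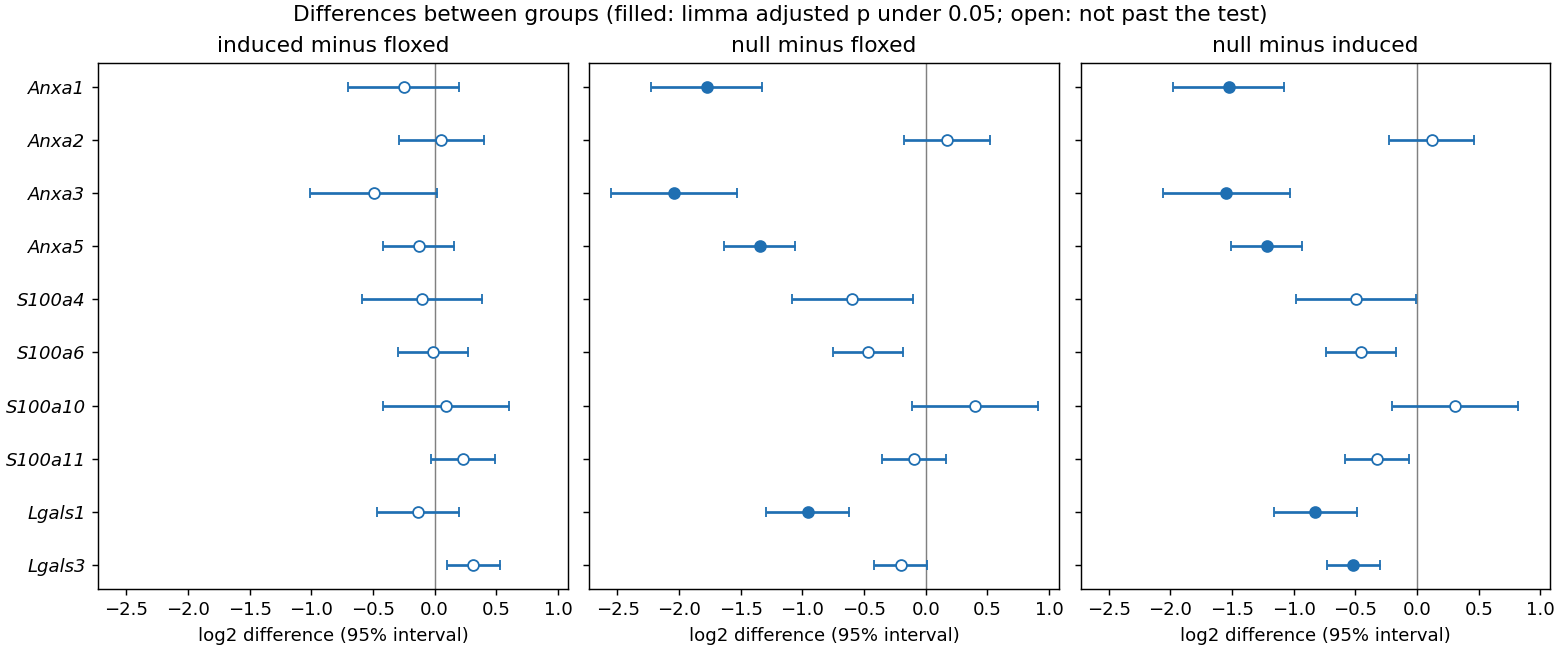
Log2 difference of each member in the 3 comparisons (horizontal axis, 1 panel per comparison; points with 95% intervals of the limma fit, unadjusted), with filled points for an adjusted p under 0.05. Anxa1, Anxa3, Anxa5 and Lgals1 lie left of 0 in both null comparisons with filled points, and no point is filled in induced minus floxed.

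Across the members, 6 of 10 had null arrays that did not overlap the floxed arrays, all with the null cells lower, where 23.4% of all genes did not overlap in either direction and 11.4% were lower. Against the induced arrays, 9 of 10 did not overlap (all but Anxa2), where 37.2% of all genes did not; in 8 of the 9 the null cells were lower, as in 18.3% of all genes. In induced minus floxed cells 2 of 10 did not overlap, S100a11 and Lgals3, both with the induced cells higher, where 12.9% of all genes did not and 6.63% were higher. With floxed arrays 1 and 2 alone, 8 of 10 did not overlap the null arrays, Anxa2 and S100a10 with the null cells higher, where 54.0% of all genes did not. Against the induced arrays 9 of 10 did not overlap them, 5 with the induced cells higher and 4 lower, where 35.5% of all genes did not. Of these, 0 passed the test in induced minus floxed cells. Both counts set 2 floxed arrays against arrays of other slides, so group and slide cannot be told apart.

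The slides gave 2 places to set groups side by side on 1 slide. On slide 2, null array 3 was below floxed array 3 for all 10 genes, as it was for 49.0% of all genes, by 1.55 for Anxa1, 1.66 for Anxa3, 1.18 for Anxa5 and 0.65 for Lgals1, with 1 array a side and no test. On slide 3, the mean of null arrays 1 and 2 differed from the mean of the 3 induced arrays by -1.46 for Anxa1, -1.61 for Anxa3, -1.18 for Anxa5, -0.85 for Lgals1 and -0.51 for Lgals3. The differences within a slide thus had the direction of those over all arrays for each of these genes. With slide as a fixed block, null minus floxed passed for Anxa5 (-1.18, limma adjusted p = 0.0443) and not for Anxa1 (-1.55, adjusted p = 0.124), Anxa3 (-1.66, adjusted p = 0.214) or Lgals1 (-0.65, adjusted p = 0.368), since that fit rests on slide 2 for this comparison; 0.251% of all genes passed in it. With slide as a random block Anxa1, Anxa3 and Anxa5 passed and Lgals1 did not (adjusted p = 0.0956), where 0.517% of all genes passed. In null minus induced cells both blocks kept the 5 calls and added S100a4 (-0.65, adjusted p = 0.0062 with the fixed block) and S100a6 (-0.49, adjusted p = 0.0492), where 16.3% of all genes passed with the fixed and 9.1% with the random block. Floxed and induced arrays never shared a slide, so their comparison has no value within one.

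**Figure D3:**
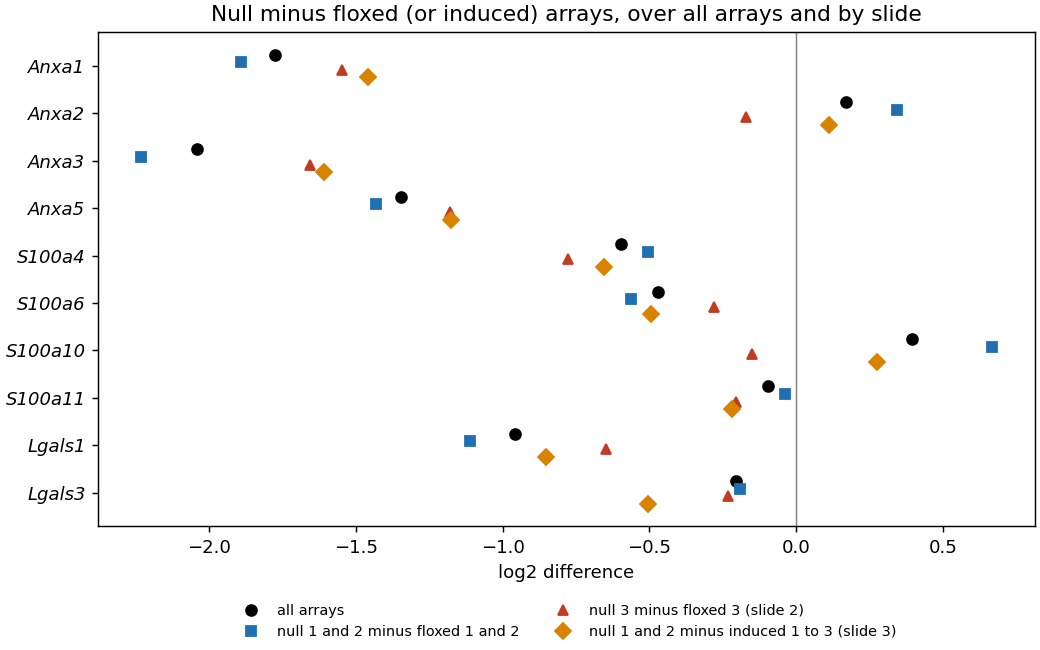
Log2 differences (horizontal axis) of the 10 genes for null minus floxed over all arrays (circles), null 1 and 2 minus floxed 1 and 2 (squares), null 3 minus floxed 3 on slide 2 (triangles) and null 1 and 2 minus the induced arrays on slide 3 (diamonds). Anxa1, Anxa3 and Anxa5 lie at -1.18 or lower in each, while Anxa2 and S100a10 lie below 0 on slide 2 and above it in the others.

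Of 28 other genes of the 3 families, 18 were tested, and 0 passed in any of the 3 comparisons (limma; at an unadjusted p under 0.05 there were 2 higher and 2 lower in null minus floxed cells). Their median change in null minus floxed cells was -0.06, beside 0.01 for all genes. When floxed array 3 was omitted, 4 of the 18 fell (Anxa8, S100a13, Lgals8 and Lgalsl) and 3 rose (Anxa11, S100a14 and S100a16) in this comparison, where 24.8% of all genes passed. Among the annexins not in the set, Anxa4, Anxa6, Anxa7 and Anxa11 differed between null and floxed cells by 0.02, 0.16, 0.25 and 0.28 (adjusted p from 0.143 to 0.959), Anxa8 by -0.76 (adjusted p = 0.0931) and Anxa9 by -0.50 (adjusted p = 0.264). The 6 values without floxed array 3 were, in the same order, -0.09, 0.22, 0.25, 0.34, -1.03 and -0.68. S100a8, S100a9 and S100b, which mark myeloid cells and glia, were well above background on 0 arrays. These genes were named after their values were seen.

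On chromosome 3 the S100 genes lie in 2 stretches. The probes of S100a4 and S100a6 lie 94.8 and 103.2 kb from that of S100a1, and those of S100a11 and S100a10 lie 3015.1 and 3053.5 kb from it. Null minus floxed was -0.60 for S100a4 and -0.47 for S100a6, with 0.29 for S100a5 between them and -0.49 for S100a3 before them (without floxed array 3, 0.49 for S100a5 and -0.34 for S100a3). In the far stretch S100a11 was at -0.09 and S100a10 at 0.40. None of the 10 S100 genes tested on this chromosome passed with all arrays at its brightest probe, though S100a4 did at its other probe, and both stretches held values of both signs. The highest difference was 1.12 for S100a14 (adjusted p = 0.0648), which was well above background on 1 floxed, 1 induced and 3 null arrays; without floxed array 3 it was 1.35 (adjusted p = 0.00527).

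**Figure D4:**
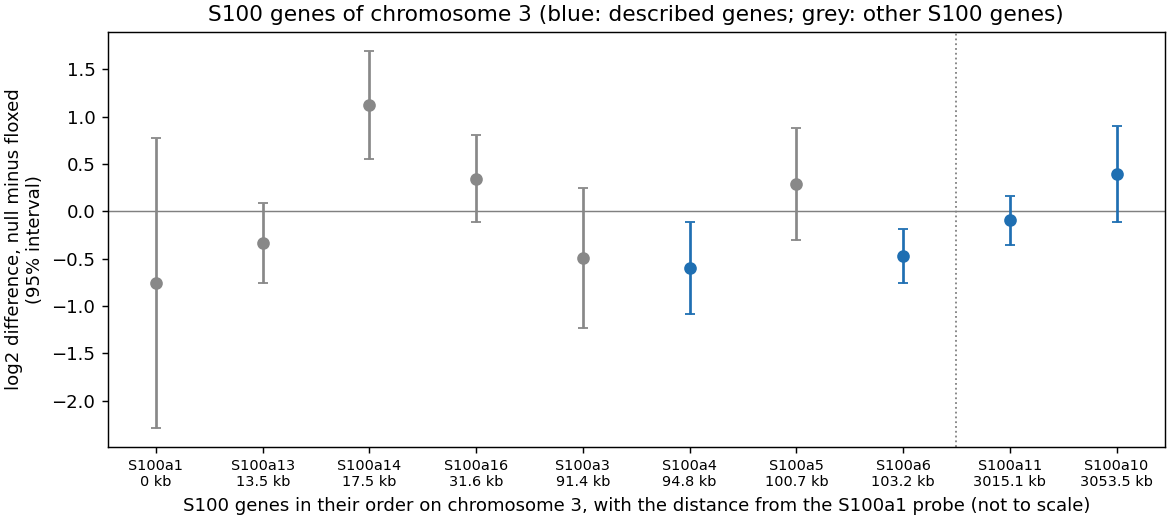
Log2 difference of null minus floxed cells (vertical axis, with 95% intervals) for the 10 S100 genes tested on chromosome 3, each at its brightest probe, in the order of their probes along it. No gene passed the test at the probe shown, and values of both signs lie on each side of the dotted line that parts the 2 stretches.

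Of 20 partners and receptors, 14 were tested. Dysf (dysferlin), a membrane repair protein that binds annexins, fell in null cells against floxed cells (-0.88, limma adjusted p = 0.0109; -0.96 without floxed array 3) and against induced cells (-0.59, adjusted p = 0.0453). Ahnak, a large scaffold bound by Anxa2 and S100a10, fell against induced cells (-0.45, adjusted p = 0.0467) and not against floxed cells (-0.34, adjusted p = 0.0933; -0.36, adjusted p = 0.0266, without floxed array 3). These were 1 of 14 in null minus floxed and 2 of 14 in null minus induced cells, where 1.85% and 2.2% of all genes passed, and 0 of 14 passed in induced minus floxed cells (limma; 1 lower at an unadjusted p under 0.05). Without floxed array 3, 3 of 14 fell in both null comparisons, Dysf, Ahnak and Myh9, a share near that of all genes that passed in those fits, 24.8% and 18.1%. Cacybp, the partner of S100a6, differed by 0.08 (adjusted p = 0.688) and Myh9, the myosin bound by S100a4, by -0.26 (adjusted p = 0.182) between null and floxed cells with all arrays. The receptors Ager, Fpr1 and Fpr2 were well above background on 0 arrays.

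Most tested markers of fibroblasts and of trophectoderm and simple epithelium were lower in null cells, as were most members. Blood and primitive endoderm markers did not fall past the test. Of 13 fibroblast markers 7 were tested and 6 fell in both null comparisons (Col1a1, Col1a2, Col3a1, Acta2, Tagln and Twist2), where 1.85% and 2.2% of all genes passed, with Acta2 at -3.55 against floxed cells (limma adjusted p = 0.000763; -3.92 without floxed array 3), while Thy1 was at 1.37 (adjusted p = 0.104; 1.92 without floxed array 3). Their summed level on the log2 scale was between 4.91 and 5.20 on the floxed arrays, 4.33 and 4.79 on the induced arrays and 3.13 and 3.40 on the null arrays; Pdgfra, Pdgfrb, Lum and Postn were well above background on 0 arrays, Dcn on 1 and Twist1 on 5. Of 9 markers of trophectoderm and simple epithelium 8 were tested, of which 7 fell in null against floxed and 5 against induced cells, Krt8, Krt18, Krt19, Cdx2 and Hand1 in both. Their summed level was between 6.17 and 6.56, 5.68 and 6.19, and 4.58 and 4.82 on the floxed, induced and null arrays, and Elf5 was well above background on 0. Of the markers that fell, Col3a1, Twist2 and Cdx2 were well above background on 0 null arrays, and Hand1 and Gata3 on 1. These genes entered the test through the floxed and induced arrays, so the size of their fall is uncertain. The summed level of the 10 members was between 7.01 and 7.11, 6.99 and 7.21, and 6.45 and 6.69. The members' sum thus overlapped between floxed and induced arrays, whereas the fibroblast sum was lower on every induced array. Each sum is set mostly by its brightest probes. On the floxed arrays these averaged 5.31 for Lgals1, 5.24 for S100a6 and 4.26 for Lgals3 among the members, and 4.69 for Tagln among the fibroblast markers. The sums thus say little of the dimmer genes, and floxed and induced arrays shared no slide. Of 9 blood and macrophage markers 7 were tested and 0 passed in any comparison (limma; 4 were higher at an unadjusted p under 0.05 in null minus floxed cells), and of 7 primitive endoderm markers only Gata4 was tested (0.04 in null minus floxed cells, adjusted p = 0.917; -0.16 without floxed array 3), with Gata6, Sox7, Sox17, Foxa2 and Pdgfra well above background on 0 arrays. All 9 stem cell markers were tested and 0 passed in null minus floxed cells (limma; 1 higher and 1 lower at an unadjusted p under 0.05), with Nanog at -0.60 (adjusted p = 0.134). In null minus induced cells Utf1 rose (0.59, limma adjusted p = 0.0322) and 0 fell. Without floxed array 3, Utf1 rose and Nanog and Esrrb fell in null minus induced cells, where 18.1% of all genes passed. With floxed array 3 left out, 5 stem cell markers fell in null minus floxed cells (Nanog, Sox2, Esrrb, Zfp42 and Klf4) and Utf1 rose, the same 6 fibroblast and 7 epithelial markers fell with Thy1 and Eomes higher, and 3 blood markers rose (Tal1, Gata1 and Hbb-bh1), where 24.8% of all genes passed. In induced minus floxed cells without that array, Acta2 fell (-1.11, limma adjusted p = 0.0341) and Tal1 rose (0.74, limma adjusted p = 0.0388). No other marker of these lists passed there, where 0.728% of all genes did. Whether other cell types were present, and whether they had any part in the members' fall, was not tested.

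The genes whose 9 array values were most like the mean pattern of the members, by Pearson's r, were Krt42 (0.992), Galnt10 (0.990), Wnt4 (0.990), Hgh1 (0.983) and Gulp1 (0.981). These values are a description over 9 arrays that share 3 groups and 3 slides. The mean pattern was 0.20, 0.28 and 0.26 on the floxed arrays, 0.31, 0.14 and 0.15 on the induced arrays and -0.50, -0.41 and -0.43 on the null arrays, around each gene's own mean. Of the 5, Wnt4, a secreted signalling protein, had the largest fall, 2.55 in null minus floxed cells.

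Promoters were read for 7 of the 10 members from RefSeq sequences of GRCm38.p6, each from 250 bases before to 50 after the start of the gene, and Anxa3, S100a10 and Lgals1 were not matched. A pair that fell in null cells, Anxa1 (chr19:20390622-20390921, minus strand) and Anxa5 (chr3:36475838-36476137, minus strand), is shown beside a pair that did not pass, Anxa2 (chr9:69453433-69453732, plus strand) and S100a11 (chr3:93520246-93520545, plus strand). Capitals mark matches to the motifs searched on both strands, the octamer ATGCAAAT of Oct factors, AP-1 (TGANTCA), TEAD (GGAATG), the GC box (GGGCGG) and the TATA box (TATAAA), of which 0 overlapped.

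Anxa1: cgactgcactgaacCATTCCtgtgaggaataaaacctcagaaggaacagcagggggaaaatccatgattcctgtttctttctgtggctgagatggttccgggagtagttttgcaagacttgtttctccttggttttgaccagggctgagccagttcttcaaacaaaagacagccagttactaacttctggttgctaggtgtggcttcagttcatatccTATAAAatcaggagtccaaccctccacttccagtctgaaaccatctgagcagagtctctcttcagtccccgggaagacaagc
Anxa5: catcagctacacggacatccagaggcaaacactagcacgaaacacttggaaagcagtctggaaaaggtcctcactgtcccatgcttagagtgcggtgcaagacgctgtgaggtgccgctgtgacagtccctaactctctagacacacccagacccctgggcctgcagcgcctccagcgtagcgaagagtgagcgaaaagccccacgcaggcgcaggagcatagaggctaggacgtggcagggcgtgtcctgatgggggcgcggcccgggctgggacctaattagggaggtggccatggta
Anxa2: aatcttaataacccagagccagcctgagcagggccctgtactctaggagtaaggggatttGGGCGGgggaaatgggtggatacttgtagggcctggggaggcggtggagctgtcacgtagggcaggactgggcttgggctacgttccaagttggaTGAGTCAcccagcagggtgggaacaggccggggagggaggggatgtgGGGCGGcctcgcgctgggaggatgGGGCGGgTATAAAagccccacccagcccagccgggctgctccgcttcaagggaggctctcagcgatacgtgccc
S100a11: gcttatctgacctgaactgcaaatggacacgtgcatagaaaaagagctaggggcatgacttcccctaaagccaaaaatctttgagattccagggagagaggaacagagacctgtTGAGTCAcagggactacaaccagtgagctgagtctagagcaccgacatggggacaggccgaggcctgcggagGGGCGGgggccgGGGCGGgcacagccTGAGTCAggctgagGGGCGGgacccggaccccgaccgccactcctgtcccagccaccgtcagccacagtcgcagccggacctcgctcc

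The octamer was in 0 of the 7 windows, beside 1.74% of 32851 windows of the same length. AP-1 was in 2 of 7, Anxa2 and S100a11, beside 7.81% of all windows, and neither of those genes passed the test. TEAD was in 1 of 7, Anxa1, beside 14.7%. The GC box was in 3 of 7 (Anxa2, Lgals3 and S100a11) beside 35.7%, and the TATA box in 3 of 7 (Anxa1, Anxa2 and S100a4) beside 13.6%. The Anxa5 window held no match to any of the 5 motifs. The share of G and C in the windows was 47.3% for Anxa1 and 60.3% for Anxa5, beside 63.7% for Anxa2 and 61.7% for S100a11, with a median of 52.7% over all windows. No motif searched was in the windows of both Anxa1 and Anxa5. Matches are letters in a window and not measured sites.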

How the data were processed

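RNA of 9 samples was labelled with Cy3 (50 ng each) and hybridised to 1-colour Agilent arrays. The deposited files hold spot intensity from Agilent Feature Extraction 10.7.3.1 (per the submitters' processing notes and the file headers), after background subtraction and with no scaling between arrays. Other deposited values, per the file headers, are mean signal, local background and spot flags. The values of the deposited series matrix equal the mean signal for 100% of values, with medians between 94.5 and 140 and no centring. No column lacked a sample (0 left over).

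Each array had 62976 spots, 59305 of them non-control, for 55681 probes. The 75th percentile of the processed signal lay between 346 and 471, median background between 29 and 46.5, and 47.4% to 57.9% of spots were well above background; 3 arrays a group limit the precision. Computed from the deposited intensity were log2 ratios of the signal to that array's 75th percentile, without control and outlier spots, with spots of a probe averaged. Probes had to be well above background on each of the 3 arrays of some group (27536 probes; 5 were left out for outlier spots). Genes were named by RefSeq accession (GRCm38.p6; 27235 probes) or as in the files, with the brightest probe for each of 19913 genes. A limma (3.58.1, R 4.3.3) fit of 3 group means gave two-sided moderated tests, adjusted by Benjamini-Hochberg over all genes, with a threshold of 0.05. A summed level is log2 of the sum of a list's relative signals.

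The members and lists were chosen with earlier results of these data known. The text names all members at every probe, Xpc, Pou5f1 and Nanog, up to 5 passing genes of the other family and partner lists in each direction, and the 5 genes most like the members' mean pattern; marker genes and other list members were named after their values were seen. On simulated data of 19913 genes with 200 changed, 70% (null minus floxed) and 72% (null minus induced) of changes of 1 and 97% and 99% of changes of 2 on the log2 scale were recovered, with 6 false calls in each. The simulated noise was independent between arrays, with no slide effect and no array that stood apart. These figures check the steps of the fit and need not hold for the real arrays. Alternatives were quantile normalization, normexp background, the series matrix, other filters, the mean of a gene's probes, slide as a block, the replicate number as a block, only the groups compared, array weights and leaving out each array.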

Additional observations from a re-analysis of the deposited data

How the results depend on the processing

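Of 630 member values under 21 other settings, 549 kept direction and side of the threshold, 34 lost the call, 25 gained one and 22 changed sign, none of the last past the test. In induced minus floxed cells 0 members passed under every setting but array weights, with 2 (Anxa1 -0.50, Anxa3 -0.72). In null minus floxed cells 4 passed; this was 1 with slide as a fixed block, 8 with array weights and 7 without slide 2, an alternative chosen after seeing the data, and between 3 and 7 on leaving out 1 array, 7 being without floxed array 3. In null minus induced cells 5 passed; this was 1 without a filter on dim probes (Anxa5, with more genes tested), 3 with the replicate block, and between 2 and 7 on leaving out 1 array: 7 without floxed array 3, 3 without null array 2 or 3, 2 without null array 1 or any induced array. All genes moved too: without floxed array 3, 24.8% passed in null minus floxed cells, and with array weights 30.2%. The cause was not tested.

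Sign changes in induced minus floxed cells were Anxa2, -0.28 with slide as a fixed and -0.061 as a random block (-0.042 to 0.23 on leaving out 1 array); S100a4, 0.17 with array weights and 0.15 without slide 2 (-0.25 to 0.15); S100a6, 0.038 with normexp, 0.044 with the series matrix, 0.21 and 0.077 with slide fixed and random (-0.12 to 0.067); S100a10, -0.43 and -0.079 with slide fixed and random (-0.11 to 0.39); and Lgals1, 0.20 with slide fixed. In null minus floxed cells they were Anxa2, -0.17, and S100a10, -0.15, with slide fixed, and S100a11, -0.17 to 0.0097 on leaving out 1 array.

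Same-numbered arrays did not deviate together (r between -0.106 and 0.0873 across genes), so the numbers were not taken to pair them, although some same-numbered arrays also share a slide; with the replicate block 4 members passed in null minus floxed and 3 in null minus induced cells.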
